A study of Mus musculus with 5 samples.

Results

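Methylation at 6 loci that encode regulators of blood stem cells, Runx1, Mecom, Meis1, Gata2, Kit and Tal1, was examined in reduced representation bisulfite sequencing of 5 mouse libraries. Each locus was a fixed window of the mm9 genome around the gene, 240 kb for Runx1, 570 kb for Mecom, 155 kb for Meis1, 30 kb for Gata2, 100 kb for Kit and 25 kb for Tal1. A CpG inside them was a member if its coverage count (a count inferred from the deposited values and explained below, not a plain read depth) was at least 10 in every library. This left 1713 of the 3129 CpGs listed there in any library, out of 1780536 such CpGs on all autosomes. In mm9, 344 of them lay in Runx1 (chromosome 16, 92599454 to 92825390), 379 in Mecom (chromosome 3, 29856046 to 30414312) and 319 in Meis1 (chromosome 11, 18770146 to 18921678). A further 387 lay in Gata2 (chromosome 6, 88139486 to 88164829), 134 in Kit (chromosome 5, 75964365 to 76057881) and 150 in Tal1 (chromosome 4, 114725012 to 114747064).

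The libraries are 1 WT library (labelled wild type), 2 K36M and 2 K9M libraries. K36M and K9M cells express dominant negative forms of the histone variant H3.3 at lysine 36 and lysine 9. The mutant mice were induced with 2 mg/ml doxycycline in their drinking water, and the labels name no doxycycline for WT, so the mutation and the drug cannot be told apart against WT. The cells are labelled HSCs, for hematopoietic stem cells, but were sorted from peripheral blood according to the growth protocol, and the methylation data hold no marker expression to check either. The promoter that drives the mutant histone and the number of animals per library are not given in the sources used here. The spread between these libraries may therefore be technical. The p-values of the regions of 1 kb below rest on that spread where it exceeded counting error, in 22.0% of regions. Elsewhere they rest on counting error.

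Runx1, Gata2, Tal1, Mecom and Meis1 are transcription factors. Runx1 is needed for blood stem cells to arise in the embryo, Tal1 and Gata2 for the earliest blood cells, and Mecom and Meis1 for stem cells to persist. Kit is the receptor for stem cell factor on stem and progenitor cells. Promoters in CpG islands are mostly free of DNA methylation, whereas most other CpGs of the genome are methylated. Methylation of lysine 36 on histone H3 is known to attract DNA methyltransferases, and methylation of lysine 9 marks silent chromatin.

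A relative level is a ratio of methylated reads to the coverage count, set against the plateau of the library, its median ratio in the most methylated tiles of 1 kb, so that a fully methylated region lies near 100% and some lie above it. The coverage count was inferred from the values and tracks methylated and unmethylated reads together. It falls short of a plain read total in 4 of the 5 libraries, where plateaus of 1.22 to 1.37 put the methylated count above it. K9M replicate 2 was deposited on another scale, so every level rests on this reading of the tables. At the members the coverage count averaged 37.2 to 47.2 per CpG and library. The libraries list 3356656 to 3534966 CpGs each.

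Start sites were located without a genome of the mm9 build. The spacing of the CpGs in each RefSeq promoter sequence (GRCm38.p6) was matched to the CpG positions listed in the files. Of 11 promoter sequences of the 6 genes, 6 had 1 clear placement, and all 6 fell inside the window of their gene. They mark start sites at mm9 position 92697574 in Runx1 (35 of 35 CpGs of the sequence were listed, with 15 at the next best placement), 18918972 in Meis1 (14 of 15, next best 9), 88143885 and 88148658 in Gata2 (26 of 32, next best 15, and 29 of 29, next best 14) and 75971012 in Kit (16 of 20, next best 11). A further Kit start lies 4 bases downstream and shares the same CpGs. Those of Mecom and Tal1 and the other Runx1 promoter had no clear placement and were not used. The letters CCGG, which MspI cuts and which read alike on both strands, occur in 8 of the 11 sequences and in 52.8% of all 32851 promoter sequences of the table.

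The 250 bases before each placed start site are shown 5′ to 3′ because they are the start sites from which the tiles below are placed. Capitals mark CpGs measured in all 5 libraries. The sequences are RefSeq's, in GRCm38.p6.
Gata2 upstream promoter, chr6:88193641-88193890, plus strand: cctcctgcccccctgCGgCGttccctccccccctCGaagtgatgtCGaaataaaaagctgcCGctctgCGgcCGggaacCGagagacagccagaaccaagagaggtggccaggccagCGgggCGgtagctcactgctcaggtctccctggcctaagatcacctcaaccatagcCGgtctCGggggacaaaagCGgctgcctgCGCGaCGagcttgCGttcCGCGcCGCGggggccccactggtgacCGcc
Gata2 downstream promoter, chr6:88198414-88198663, plus strand: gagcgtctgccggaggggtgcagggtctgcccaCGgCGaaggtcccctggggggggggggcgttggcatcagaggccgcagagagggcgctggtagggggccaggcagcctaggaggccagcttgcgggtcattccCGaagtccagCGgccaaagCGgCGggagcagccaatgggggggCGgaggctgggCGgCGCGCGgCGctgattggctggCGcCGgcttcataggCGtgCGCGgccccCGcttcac
Runx1 promoter, chr16:92697330-92697579, minus strand: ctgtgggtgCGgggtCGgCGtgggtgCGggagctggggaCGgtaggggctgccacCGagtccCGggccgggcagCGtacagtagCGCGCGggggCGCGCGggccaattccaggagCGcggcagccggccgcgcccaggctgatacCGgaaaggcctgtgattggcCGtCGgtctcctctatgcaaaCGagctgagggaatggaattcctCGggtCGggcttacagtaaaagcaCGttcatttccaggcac
Meis1 promoter, chr11:19018970-19019219, minus strand: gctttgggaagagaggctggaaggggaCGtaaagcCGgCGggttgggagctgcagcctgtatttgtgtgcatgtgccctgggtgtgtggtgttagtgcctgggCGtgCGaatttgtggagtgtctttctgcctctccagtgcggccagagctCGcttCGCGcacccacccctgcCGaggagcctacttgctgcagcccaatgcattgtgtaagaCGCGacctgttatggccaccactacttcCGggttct
Kit promoter, chr5:75574737-75574986, plus strand: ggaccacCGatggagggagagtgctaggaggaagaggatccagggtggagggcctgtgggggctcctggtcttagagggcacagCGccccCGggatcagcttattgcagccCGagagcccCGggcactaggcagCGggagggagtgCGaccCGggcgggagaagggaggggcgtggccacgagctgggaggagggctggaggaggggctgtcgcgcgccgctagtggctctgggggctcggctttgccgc

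These promoters were almost free of methylation in every library. Over the whole 300 bases of each sequence, which run 50 bases past the start, the 26 measured CpGs of the upstream Gata2 promoter stood at 0.0676% in WT, 0.309% and 1.03% under K36M and 0.0863% and 0.360% under K9M. At the downstream Gata2 promoter, the 23 CpGs stood at 0.774% in WT, 0.721% and 0.334% under K36M and 0.213% and 0.793% under K9M. The 30 CpGs of the Runx1 promoter lay between 0.134% and 0.685% over the 5 libraries, the 12 of Meis1 between 0 and 0.336%, and the 8 of Kit between 0 and 1.76%. No group stood apart at all of these promoters. The highest Kit values were those of K36M, 1.76% and 0.961%, beside 0.316% in WT and 0 and 0.287% under K9M. They lie inside the 95% counting interval of WT, 0.00798% to 1.78% (Clopper-Pearson, counting error only). That interval is wide, at 8 CpGs with a mean coverage count of 32, and holds no error of K36M, so it cannot decide whether they differ. Of 22 other stem cell and progenitor regulators chosen for the same match, 16 were in the promoter table and 8 could be placed, with 9 promoters: Myb, Ikzf1, Hhex, Prdm16, Hlf, Ldb1 (with a pair of promoters), Bmi1 and Bcl11a. All 9 lay under 5% in every library, with a highest value of 1.55% (Hlf), so the start sites that could be read differed little from 0 in WT and in both mutants.

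The 6 windows differed strongly in how methylated they were. Pooled over its CpGs, Runx1 stood at 52.5% in WT, 47.7% and 48.4% under K36M and 49.9% and 51.6% under K9M. Mecom stood at 40.7% in WT, 39.0% and 44.6% under K36M and 42.6% and 42.8% under K9M. Kit stood at 33.9% in WT, 34.8% and 34.5% under K36M and 40.8% and 42.1% under K9M. The level of Runx1 lay above that of Mecom and that of Mecom above that of Kit in each group, although K9M replicate 2 set Mecom at 42.8% and Kit at 42.1%.

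Gata2, Tal1 and Meis1 were mostly unmethylated. Gata2 stood at 14.6% in WT, 10.7% and 10.1% under K36M and 18.4% and 17.7% under K9M. Tal1 stood at 4.49% in WT, 3.82% and 3.62% under K36M and 5.35% and 5.13% under K9M. Meis1 stood at 2.27% in WT, 2.03% and 2.12% under K36M and 3.27% and 3.24% under K9M. In these 3 windows the 5 libraries fell in the same order, with both K36M libraries lowest, WT between and both K9M libraries highest. In Meis1 the difference of K36M from WT, -0.190 points, turned to 0.0396 points at a coverage minimum of 20.

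**Figure D1:**
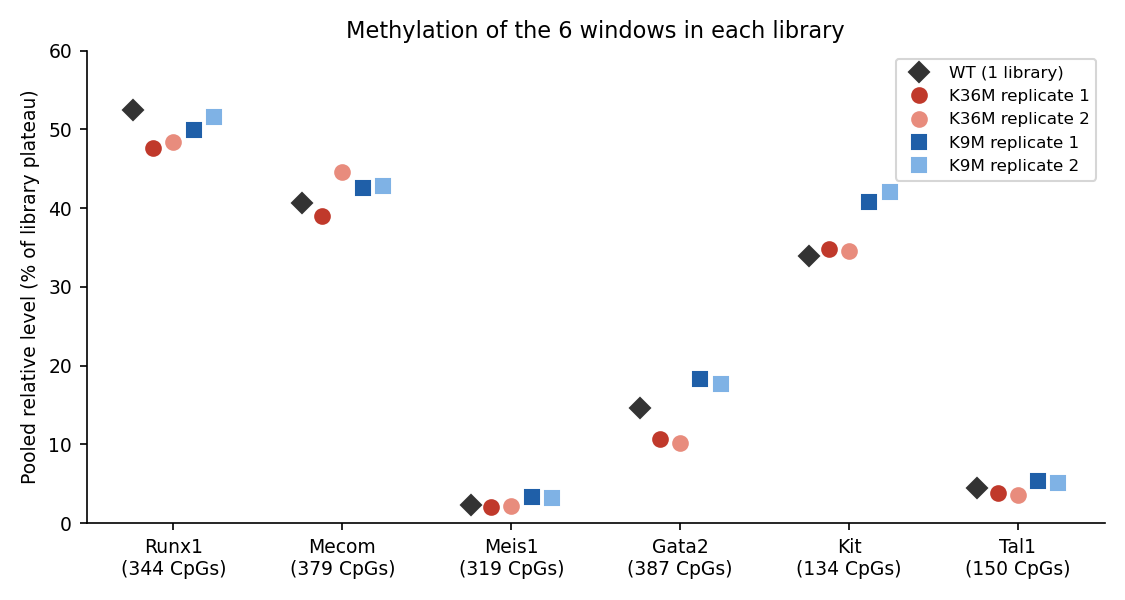
Pooled relative level of each window (y axis, percent of the library's plateau) in each of the 5 libraries, with 1 point per library and the number of CpGs under each name. In Gata2 the K36M points lie near 10% to 11%, WT at 14.6% and the K9M points near 18%, while the K36M points of Mecom straddle the other libraries.

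Set against WT, the pooled difference in Gata2 was -4.17 points in K36M and 3.44 points in K9M, with replicate SDs of 0.417 and 0.460 (n = 2 each). WT itself had a 95% counting interval of 14.1% to 15.1%, and both mutants lay outside it. That interval holds no spread between libraries and treats CpGs that share reads as independent, so it does not test these differences. In Kit the K9M libraries were 7.52 points above WT (SD 0.866, n = 2), or 2.54 points when each CpG had the same weight, and K36M was 0.745 points above it when counts were pooled but at -3.60 points from it when each CpG had the same weight. In Runx1 the difference of K36M from WT was -4.50 points (SD 0.495, n = 2), or -2.07 points with levels as deposited. That of K9M was -1.77 points there, but 5.61 points with levels as deposited and 0.122 points when each CpG had the same weight. K36M and K9M did not overlap in any window except Mecom, and the exact two-sided permutation p was 0.333 in those 5 windows, the smallest that 2 libraries against 2 can give, so this test cannot reach 0.05. For Mecom it was 1.0. The mutants were also apart over all autosomal CpGs pooled, with K36M libraries at 41.6% and 41.4% and K9M libraries at 42.3% and 42.2%. WT was at 42.6% there, above every mutant library. Relative to K9M, K36M stood at -0.742 points over those CpGs and at -3.57 points over the 6 windows pooled. Relative to WT, K36M stood at -1.12 and -1.89 points, and K9M at -0.376 and 1.68 points. Whether the windows depart from the genome was not tested.

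Across all autosomes, 152678 tiles of 1 kb held 3 or more such CpGs and were tested with a logistic model on the methylated and coverage counts whose replicate dispersion was moderated with limma. A tile was called at a Benjamini-Hochberg adjusted p under 0.05 and a difference of at least 10 points. The windows held 120 tiles with 1642 of the 1713 CpGs, and the other 71 CpGs lay in tiles with too few. WT has 1 library, so it was assumed to vary like the mutants.

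Against WT, 2 of the 120 tiles were called lower in K36M, 1 in Gata2 and 1 in Kit, where 0.476% of all tiles were called. None was called higher (0.0144% of all tiles) by this limma-moderated model. At an unadjusted p under 0.05 of the same model 19 tiles were lower (3.86% of all tiles) and 2 higher (1.4%), and limma on relative levels called 0 tiles in either direction. K9M was called higher than WT in 2 tiles, both in Gata2, where 0.0504% of all tiles were called, and lower in 0 (0.0275% of all tiles) by the limma-moderated model. At an unadjusted p under 0.05, 17 tiles were higher in K9M (1.64% of all tiles) and 0 lower (1.26%), and limma on relative levels called 1 higher and 0 lower. K36M was called lower than K9M in 7 tiles, 3 in Gata2, 2 in Kit, 1 in Mecom and 1 in Tal1, where 1.22% of all tiles were called, and higher in 0 (0.0701% of all tiles). At an unadjusted p under 0.05, 35 tiles were lower in K36M than in K9M (5.54% of all tiles) and 0 higher (1.9%), and limma on relative levels called 4 and 0. These comparisons share libraries.

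The order of the libraries was counted as well, without a test. WT was above both K36M libraries in 65 of the 120 tiles, or 54.2%, against 38.8% of all tiles, and below both in 16 (25.1% of all tiles). Both K9M libraries lay above WT in 55 tiles (37.3% of all tiles) and below it in 22 (27.5%). K36M libraries lay below both K9M libraries in 67 tiles (29% of all tiles) and above them in 7 (12.9%). The full order of K36M below WT and K9M above it occurred in 27 tiles, or 22.5%, against 9.14% of all tiles, and the reverse order in 1 (3.04%). Of the 27, 12 lay in Gata2, 5 in Runx1, 4 in Mecom, 4 in Meis1, 1 in Kit and 1 in Tal1.

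**Figure D2:**
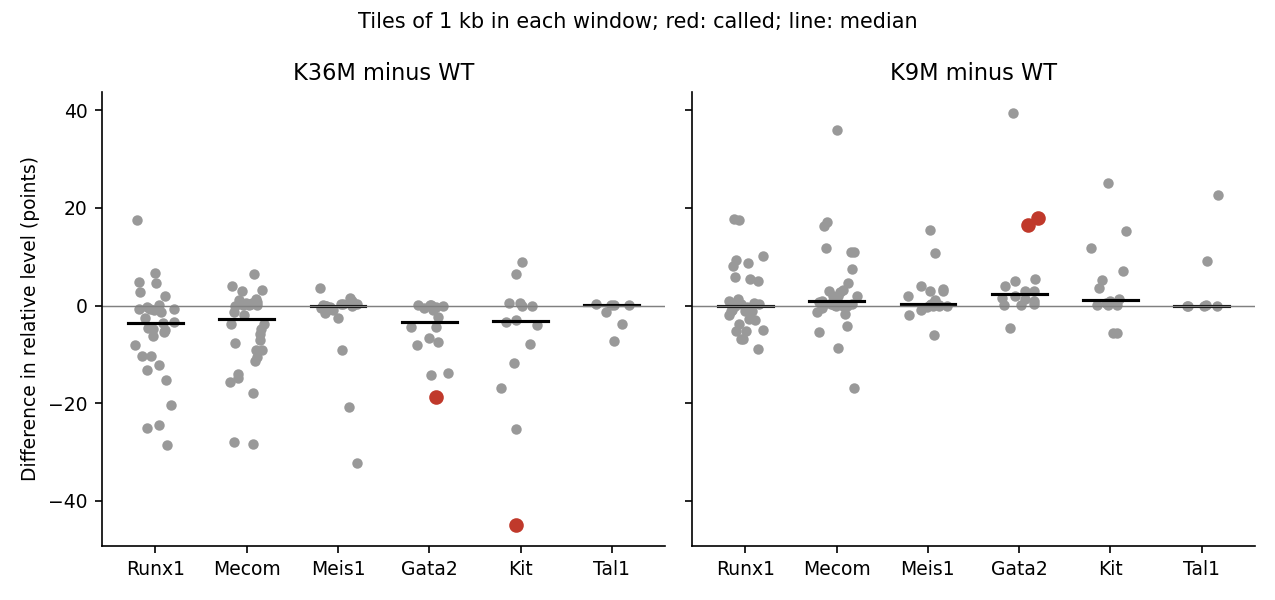
Difference from WT in relative level (y axis, points) for every tile of 1 kb in each window, for K36M on the left and K9M on the right, with 1 point per tile, called tiles in red and the median of each window as a line. The called K36M tiles, in Gata2 and Kit, lie below 0 and the called K9M tiles, both in Gata2, above it.

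Gata2 was the locus with the most called tiles in K36M against K9M. Its window has 16 tiles, and both of its start sites, 4.773 kb apart, lie in unmethylated CpG islands. The tile at the upstream start (88143001 to 88144000, 44 CpGs) was at 1.31% in WT and between 1.14% and 3.01% in the mutants. The tile at the downstream start (88148001 to 88149000, 46 CpGs) was at 1.06% in WT and between 0.588% and 1.40% in the mutants.

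The tile from 88150001 to 88151000 held 29 CpGs, which lie 1364 to 2017 bases downstream of the downstream start site. It was at 30.7% in WT, 11.5% and 12.3% under K36M and 47.2% and 50.1% under K9M, with coverage counts of 40.9 to 57.1 per CpG. The groups did not overlap: both K36M libraries were low, WT was between and both K9M libraries were high. The difference from WT was -18.8 points in K36M (adjusted p = 0.000731, limma-moderated model) and 18.0 points in K9M (adjusted p = 0.0344), and that between K36M and K9M was -36.8 points (adjusted p = 9.95e-06). All 29 CpGs were lower in both K36M libraries than in WT, and 27 were higher in both K9M libraries. CpGs of a tile share reads and are not replicates, and this tile was named for its pooled values, so their agreement is no separate evidence. Without K36M replicate 1 or 2, the adjusted p of K36M against WT rose to 0.0986 and 0.132, and over all 11 alternatives it ran from 5.83e-07 to 0.523. The K9M call against WT was lost without any 1 of the 4 mutant libraries and held in 3 of 11 alternatives (adjusted p 0.00138 to 1.0), whereas the call of K36M against K9M was lost in 1 of 11, the fit with a replicate block (adjusted p = 0.0688).

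The tile from 88146001 to 88147000 lies between the start sites. Its 33 CpGs are 2464 to 2896 bases downstream of the upstream start and at -2309 to -1877 bases from the other. It was at 12.5% in WT, 8.13% and 7.90% under K36M and 28.0% and 30.0% under K9M. Here K9M stood apart most, 16.6 points above WT (adjusted p = 0.00258, limma-moderated model), with 32 of 33 CpGs higher in both K9M libraries. This tile too was named for its pooled values, so its CpGs are no separate evidence. The difference of K36M was -4.45 points from WT (adjusted p = 0.102, not called) and -21.0 points from K9M (adjusted p = 1.65e-05). The K9M call against WT was lost without any 1 of the 4 mutant libraries and with a replicate block (adjusted p = 0.851), and held in 6 of 11 alternatives. That of K36M against K9M was lost with a replicate block (adjusted p = 0.0712) and held in the other 10. The lowest adjusted p of each, 6.72e-08 and 3.88e-21, came from limma on levels as deposited, where K9M replicate 2 is on another scale.

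Upstream of both start sites, the tile from 88140001 to 88141000, with 16 CpGs at -3863 to -2895 bases from the nearer start, was at 64.3% in WT, 49.8% and 51.1% under K36M and 66.7% and 67.9% under K9M. The difference of K36M from K9M was -16.8 points (adjusted p = 0.0305, limma-moderated model), a call that held in 3 of 11 alternatives (adjusted p 0.00832 to 0.583) and was lost without any 1 of the 4 mutant libraries. Against WT, K36M differed by -13.8 points (adjusted p = 0.224, not called), or -5.81 points with levels as deposited. This tile lies between an unmethylated island, whose 47 CpGs were at 0.277% to 0.444% in the 5 libraries, and a tile of 6 CpGs at 88.5% to 102%.

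Most of the other Gata2 tiles had the same order of libraries without being called. With the 3 called tiles, chosen on these values, counted in, K36M libraries lay below WT and K9M libraries above it in 12 of the 16 tiles (9.14% of all tiles). Both K36M libraries lay below both K9M libraries in 14 of 16 (29% of all tiles). Neighbouring tiles are not independent. Beyond the called tile downstream of the downstream start, the tile of 12 CpGs from 88152001 was at 6.15% in WT, 1.84% and 1.64% under K36M and 7.90% and 12.5% under K9M. It passed the adjusted p of the limma-moderated model for K36M against K9M (0.00178) but not the 10 points. The tile with the largest K9M difference from WT in Gata2, from 88145001 to 88146000, was chosen after its values were seen. With 3 CpGs, it was at 40.5% in WT, 38.9% and 37.5% under K36M and 87.1% and 73.0% under K9M, a difference of 39.5 points that was not called (adjusted p = 1.0, limma-moderated model).

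**Figure D3:**
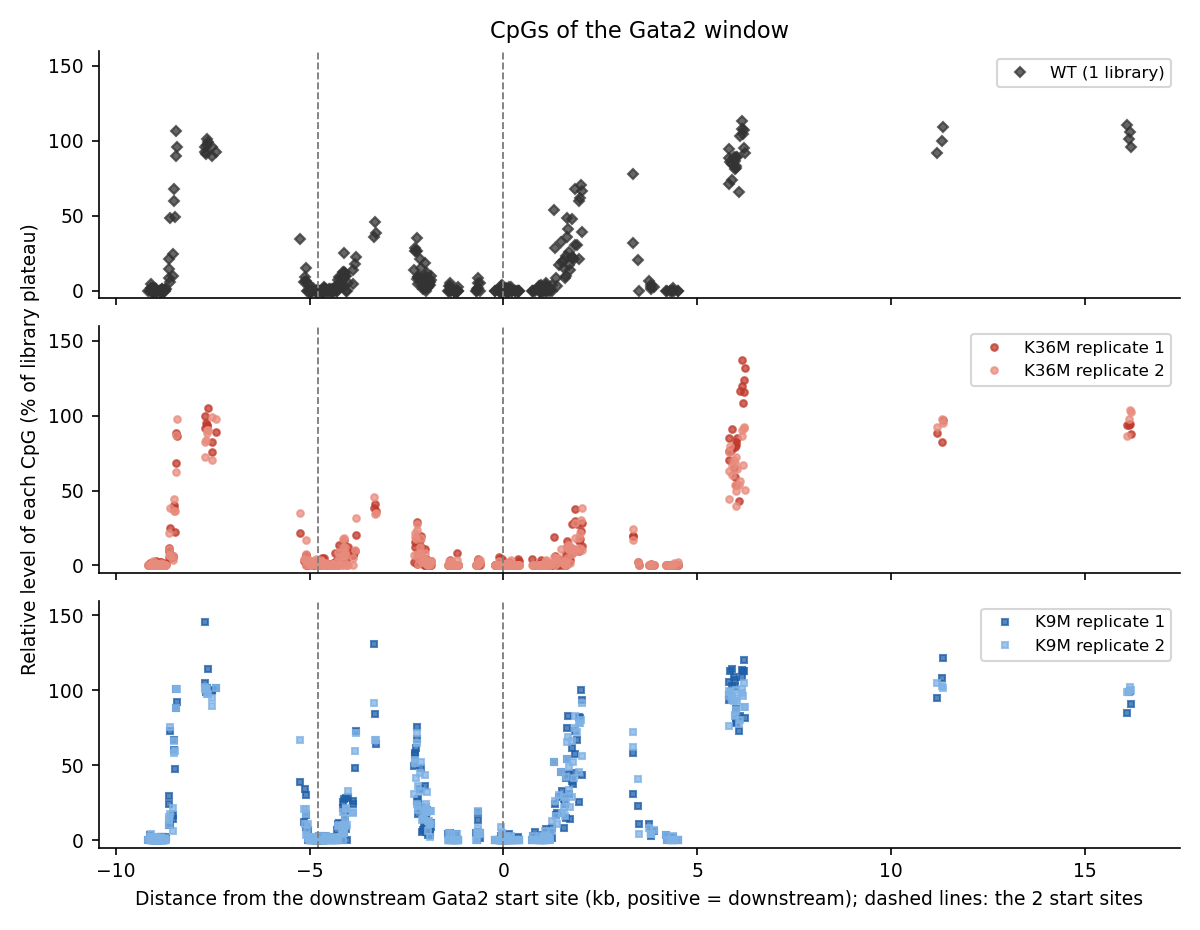
Relative level of each measured CpG in the Gata2 window (y axis, percent of the library's plateau) against its distance from the downstream start site in kb (x axis), in WT (top), K36M (middle) and K9M (bottom), with dashed lines at both start sites. CpGs at both start sites lie near 0 in all 5 libraries, while the tile of 29 CpGs 1364 to 2017 bases downstream averages 30.7% in WT, 11.9% under K36M and 48.7% under K9M.

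On the plateau scale, Kit held the tile with the largest difference of K36M from WT among the 120. Its start site lies in an island of 2 tiles, with 20 and 42 CpGs, at 0.251% to 1.24% in the 5 libraries. The tile from 76024001 to 76025000, with 3 CpGs about 53 kb downstream of the start, was at 75.9% in WT, 32.2% and 29.6% under K36M and 69.5% and 70.9% under K9M. Only the K36M libraries were low. The difference of K36M was -45.0 points from WT (adjusted p = 0.049, limma-moderated model) and -39.3 points from K9M (adjusted p = 0.0193), and K9M differed from WT by -5.70 points (adjusted p = 1.0). With levels as deposited, the difference from WT was -20.7 points, less than the -21.6 points of the Mecom tile from 30411001. The call against WT was near the threshold: it held in 2 of 11 alternatives (adjusted p 0.00538 to 1.0) and was lost without any 1 of the 4 mutant libraries, as was the call against K9M, which held in 4 of 11 (adjusted p 0.00179 to 0.393).

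In a further Kit tile the K9M libraries were high. From 76004001 to 76005000, with 10 CpGs about 33 kb downstream of the start, the level was 65.3% in WT, 55.5% and 68.9% under K36M and 88.5% and 92.3% under K9M. The K36M libraries lay on either side of WT, and both K9M libraries were above all others. Against K9M, K36M differed by -28.2 points (adjusted p = 0.0375, limma-moderated model). That call held in 2 of 11 alternatives (adjusted p 0.00504 to 0.597) and was lost without any 1 of the 4 mutant libraries. K9M was 25.2 points above WT (adjusted p = 0.645, not called).

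In Mecom, 197 CpGs were under 20% by the K9M libraries, 170 over 80% and 12 between. Of its 32 tiles, 10 were under 20%, 21 over 80% and 1 between. The tile between, from 30411001 to 30412000, has 4 CpGs and lies in a stretch of islands whose dense neighbours, with 75 CpGs from 30407001 and 41 CpGs from 30413001, were at 0.208% to 0.758% in the 5 libraries. It was at 36.3% in WT (95% counting interval 24.2% to 53.6%), 5.67% and 11.1% under K36M and 74.2% and 70.3% under K9M, with coverage counts of only 12.5 to 21.8 per CpG. The groups did not overlap, and all 4 CpGs were lower in both K36M libraries and higher in both K9M libraries than in WT. As the tile was named for its pooled values, its CpGs are no separate evidence. The difference between K36M and K9M was -63.9 points (adjusted p = 0.00324, limma-moderated model), the largest between the mutants in the 6 windows. The call was lost without any 1 of the 4 mutant libraries and with a replicate block (adjusted p = 0.174), and held in 5 of 10 alternatives. The lowest adjusted p, 8.23e-13, came from limma on levels as deposited, where K9M replicate 2 is on another scale. Of the nearest measured tiles, each 2 kb away, that with 8 CpGs from 30409001 was at 1.90% in WT, 0.427% and 0.762% under K36M and 5.76% and 7.29% under K9M, in the same order but within 10 points (adjusted p of K36M against K9M 0.00238, limma-moderated model). The one with 41 CpGs from 30413001 did not have this order, at 0.564% in WT, 0.758% and 0.543% under K36M and 0.655% and 0.517% under K9M. Against WT neither mutant was called, K36M at -27.9 points (adjusted p = 0.136, and 0.0326, a call, with a robust estimate of limma's prior, in a range of 0.0326 to 1.0) and K9M at 36.0 points (adjusted p = 1.0).

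The Mecom tile with the largest K36M difference from WT, from 30126001 to 30127000 with 3 CpGs, was at 82.6% in WT, 47.0% and 61.7% under K36M and 77.4% and 93.3% under K9M. Its -28.3 points were not called (adjusted p = 0.845, limma-moderated model), with an SD of 10.4 points between the K36M replicates, and were -10.5 points with levels as deposited. A dense and methylated tile of the same window, with 50 CpGs from 29929001, showed no such difference, at 88.4% in WT, 86.1% and 93.1% under K36M and 85.2% and 95.4% under K9M.

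In Tal1, 140 of 150 CpGs were under 20% by the K9M libraries. Its densest tile, with 74 CpGs from 114729001, was at 0.369% to 0.634% in the 5 libraries. The tile from 114732001 to 114733000, with 4 CpGs, was at 9.44% in WT, 0.791% and 3.40% under K36M and 33.7% and 30.3% under K9M. The libraries again fell in the order K36M, WT, K9M without overlap. All 4 CpGs followed it, which is no separate evidence in a tile named for its pooled values. K36M differed from K9M by -29.9 points (adjusted p = 0.00014, limma-moderated model). The call was lost without K36M replicate 2 (-31.2 points) and with a replicate block (adjusted p = 0.118), and held in 9 of 11 alternatives. The lowest adjusted p, 5.37e-65, came from limma on levels as deposited, where K9M replicate 2 is on another scale. K9M was 22.6 points above WT (adjusted p = 0.0633) and K36M at -7.35 points from it (adjusted p = 0.117), and neither was called.

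**Figure D4:**
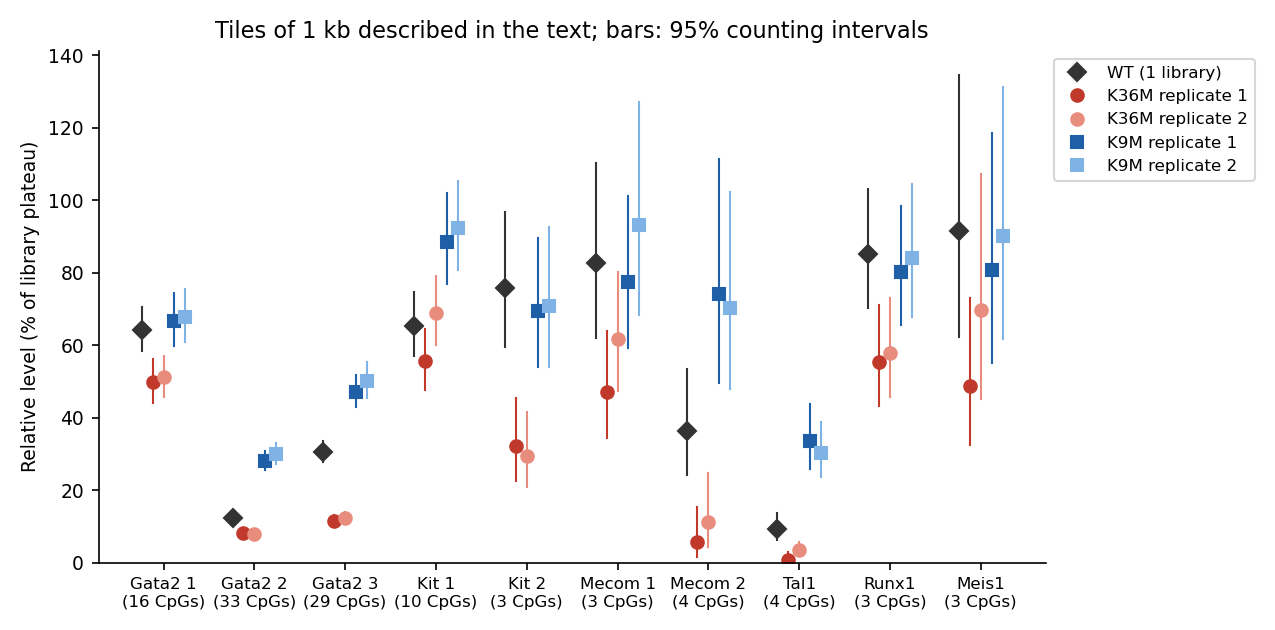
Relative level (y axis, percent of the library's plateau) of the 10 tiles described for the 6 loci in each library, numbered along the chromosome within a locus, with 95% counting intervals as bars. K36M points lie below K9M points in all 10 tiles, and in Mecom 2, Tal1 and each Gata2 tile WT lies between them. The tiles were chosen from these values, 7 of them as called lower in K36M than in K9M, so this order is no separate evidence.

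Runx1 and Meis1 had no called tile in any comparison of the limma-moderated model. Between K36M and K9M, 7 further tiles passed the adjusted p within 10 points, all lower in K36M (0.287% of all tiles, with 0.0616% higher), 2 in Gata2, 2 in Mecom, 2 in Meis1 and 1 in Runx1. In Runx1, the tile over the placed start (73 CpGs from 92697001) was at 1.27% in WT, 1.22% and 0.729% under K36M and 1.74% and 1.65% under K9M. Levels were higher on both sides of it. The tiles centred 1.07 and 2.07 kb downstream were at 91.4% to 109% in the 5 libraries. Upstream, the next tile was at 1.24% to 4.21%, the one after it at 6.87% to 11.6%, and a tile of 4 CpGs at -2.93 kb at 56.4% to 88.2%. The tile with the largest K36M difference in Runx1, from 92614001 to 92615000 with 3 CpGs about 83 kb downstream of this start, was at 85.2% in WT, 55.5% and 57.8% under K36M and 80.3% and 84.2% under K9M. Only the K36M libraries were low, but the -28.5 points were not called (adjusted p = 0.418, limma-moderated model) and were -10.1 points with levels as deposited.

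Meis1 was the least methylated window, with 302 of 319 CpGs under 20% by the K9M libraries. All 3 of its tiles over 80% by those libraries were lower in both K36M libraries than in WT, against 39.3% of all such tiles. They hold 3 or 4 CpGs each and were not called. The largest difference, from 18856001 to 18857000 about 62 kb downstream of the start with 3 CpGs, was from 91.5% in WT to 48.9% and 69.7% under K36M, with K9M at 80.8% and 90.1%. The -32.2 points were not called (adjusted p = 1.0, limma-moderated model), at coverage counts of 16.3 to 23.0 per CpG, and were -11.0 points with levels as deposited. A low tile centred 11.5 kb downstream of the start, from 18907001 with 13 CpGs, was higher in both K9M libraries, at 14.7% and 10.9%, than in WT at 1.93% and K36M at 0.571% and 6.39%. This was not called against WT (adjusted p = 0.199) and was chosen after its values were seen.

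To compare K36M with WT by level, tiles were classed by the mean of the K9M libraries, which take no part in that comparison. That mean is not the WT level. The Tal1 tile from 114732001, at 9.44% in WT, is classed at 20% to 80%, and the Gata2 tile from 88145001, at 40.5% in WT, over 80%. In the 12 tiles of the windows at 20% to 80%, the mean level was 53.6% in WT and 36.5% and 35.9% under K36M, a mean difference of -17.4 points, and WT was above both K36M libraries in 11 tiles. Over all 17736 such tiles of the genome the mean difference was -5.53 points, and 54.2% of them had both K36M libraries below WT. In the 59 member tiles over 80% the mean difference was -6.19 points, against -1.97 points over all such tiles, and WT was above both K36M libraries in 32 of 59, against 39.3%. In the 49 member tiles under 20% it was -0.524 points, against -0.174. The median over the 120 tiles was -1.36 points for K36M and 0.666 points for K9M against WT, beside -0.483 and 0.319 points over all tiles. These are descriptions of chosen loci, without a test of the windows against the genome.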

How the data were processed

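The members, lists and tests were chosen with earlier results of these data known. Per the submitters' processing notes, the authors used cutadapt and BSMAP with the mm9 build; versions, settings and deduplication are not given in the sources used here. Each deposited table gives the authors' fraction methylated and a total count for every CpG listed. From the values, the deposited total was read as methylated reads plus a coverage count in 4 libraries and as the coverage count alone in K9M replicate 2. No source used here records a step that would make this difference. On this reading, points with levels as deposited are not points of the plateau scale, and K9M replicate 2 is on another scale than the rest. The methylated count is the product of fraction and total, rounded (at totals under 1000, it was whole within 0.01 at 100% of positions in the 4 libraries and at 89.2% in K9M replicate 2). The ratio of methylated to coverage count was divided by the library plateau, the median ratio of the 20% of 1 kb tiles with the highest mean rank: 1.23 in WT, 1.22 and 1.26 in K36M, 1.37 and 0.954 in K9M. This scale does not show a change shared by every CpG of a library.

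All autosomal tiles with at least 3 CpGs at a coverage count of at least 10 in each library entered 1 logistic fit of all 5 libraries, with the log plateau as offset, Pearson dispersion (2 residual degrees of freedom) moderated with limma 3.58.1 (R 4.3.3; the prior follows the log of the mean count) and held at or above 1, F tests of the deviance and Benjamini-Hochberg adjustment. The fit was also run on simulated counts drawn with its own dispersions, with the methylated and coverage counts as separate reads. That run cannot check how the deposited counts were read or whether the model suits them. Neighbouring CpGs share reads, which only the replicate dispersion takes up. It exceeded 1 in 22.0% of tiles, and elsewhere p-values rest on counting error. It was 1 in the called tiles from 88140001 in Gata2, 76024001 in Kit, 30411001 in Mecom and 114732001 in Tal1. Counting intervals are 95% Clopper-Pearson intervals of the methylated count as a share of both counts summed, turned into ratios. They cover counting error only. Both the logistic fit and these intervals treat the methylated and coverage counts as separate reads. On the reading above, the coverage count tracks methylated reads too, so some reads may enter both counts. Intervals and p-values then measure counting error only approximately. A promoter was placed where at least 8 of its CpG positions were listed and at least 4 more than at any other position of the chromosome. Named tiles are all called ones and, in each locus, the one with the largest K36M difference from WT. Positions are mm9, counted from 1, with the tables read as BED. Alternatives were other coverage minimums, plateaus, tile sizes and tests, levels as deposited, the mean of CpG levels, a replicate block and leaving out each mutant library. Exons, introns and untranslated regions were not assigned, because no mm9 annotation was used here.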

Additional observations from a re-analysis of the deposited data

How the results depend on the processing

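K36M stayed below WT and below K9M, and K9M above WT, in the level pooled over the 6 windows under all 9 alternatives run. K9M stood 1.68 points from WT, 1.52 with a plateau over 40% of tiles, 2.58 with levels as deposited and 1.79 with the mean of CpG levels. Without 1 mutant library it was 1.61 to 1.75 points, K36M against WT was -2.55 to -1.22 and K36M against K9M -4.23 to -2.90. Calls depended on the setting. The 2 tiles lower in K36M than in WT became 1 at a coverage minimum of 5, 1 with a plateau over 40% of tiles, 0 with limma on relative levels, 0 with levels as deposited and 0 to 1 without 1 mutant library. The 2 tiles higher in K9M than in WT became 1 at a coverage minimum of 5, 1 with limma on relative levels, 5 with levels as deposited, 1 with tiles of 500 bases and 0 without any 1 mutant library. The 7 tiles lower in K36M than in K9M became 4 with limma on relative levels and 2 to 4 without 1 mutant library. Fits without a library have 1 residual degree of freedom and made fewer calls over all tiles too, at most 0.389%. A robust estimate of the prior degrees of freedom, chosen after seeing the data, gave 3, 3 and 9 tiles. No tile was called in the other direction in any of these fits. Among single windows and named tiles, directions turned in 8 cases: K9M against WT in Runx1, 5.61 points with levels as deposited and 0.122 with the mean of CpG levels, K36M against WT in Meis1, 0.0396 at a coverage minimum of 20, K36M against WT in Kit, -3.60 with the mean of CpG levels, K36M against WT in Mecom (1.09 points), -1.95 with the mean of CpG levels and -1.71 without K36M replicate 2, K36M against K9M in Mecom (-0.868), 1.93 without K36M replicate 1, and K36M against WT in the Kit tile from 76004001, 3.65 without K36M replicate 1 (-9.72 to 3.65 over the fits without 1 mutant library). The cause was not tested. With levels as deposited, differences that involve K9M mix the scale of K9M replicate 2 with that of the other libraries, on the reading given above. Whether the replicate numbers of the titles pair the libraries is not known. Deviations of K36M replicate 1 and K9M replicate 1 had a correlation of 0.0773 over 152678 tiles. These deviations include counting error, so a low correlation cannot exclude pairing. With a replicate block, which leaves 1 residual degree of freedom, 0 tiles were called in each of the 3 comparisons. No value exists at a coverage minimum of 20 for both named Mecom tiles and that of Meis1.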
